A study of Mus musculus with 4 samples.

Results

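The zona pellucida genes Zp1, Zp2 and Zp3 were examined in RNA-Seq libraries of mouse oocytes. They were chosen by name, and all 3 were found among the 25587 genes for which values were deposited. The oocytes came from untreated, wild-type C57BL/6 females (C57BL/6Babr) and were pooled by stage: non-growing oocytes (NGOs) at 5 dpp (days post-partum), growing oocytes at 8 to 14 dpp (GO1) and at 15 dpp (GO2), and fully grown, germinal vesicle oocytes (FGOs) at 20 dpp. Total RNA was depleted of ribosomal RNA and sequenced as 1 library per stage, with the dUTP protocol for NGOs and FGOs and the ScriptSeq v2 kit for GO1 and GO2. The values are RPKM, which is reads per kilobase of exon, scaled to the total reads of the library. No stage had a second library, so the spread between pools of oocytes is unknown, no test between stages could be made and no p value is given. Stage and protocol cannot be told apart between NGOs and GO1 or between GO2 and FGOs, and each pair made with the same protocol (NGOs with FGOs, GO1 with GO2) was therefore compared first.

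The zona pellucida is the extracellular coat of the mammalian egg, which is laid down around the oocyte while it grows, binds sperm of the same species and later protects the early embryo. In the mouse it is built from the products of Zp1, Zp2 and Zp3, which are secreted glycoproteins that assemble through a shared ZP domain. ZP2 and ZP3 are the building units of long filaments, and ZP1 cross-links them. ZP2 is also the protein that the egg protease ovastacin cleaves after fertilization, which stops further sperm from binding. The genes are transcribed in oocytes under the control of FIGLA, a basic helix-loop-helix factor of the germ line that pairs with a broadly expressed partner and binds E-boxes, short motifs of the form CANNTG.

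The genes lie on different chromosomes (coordinates on GRCm38). Zp1 (ENSMUSG00000024734.8) was listed on the minus strand of chromosome 19, from 10914287 to 10920632, and its transcript has 12 exons and 1963 bases, of which 1869 are coding. Zp2 (ENSMUSG00000030911.7) was listed on the minus strand of chromosome 7, from 120132361 to 120145290, and the transcript used has 18 exons and 2221 bases, of which 2139 are coding. Zp3 (ENSMUSG00000004948.12) was listed on the plus strand of chromosome 5, from 135980099 to 135988624, and the transcript used has 8 exons and 1323 bases, of which 1272 are coding. No other GENCODE gene overlapped any of the 3 on either strand, so reads of an antisense partner annotated there do not enter their values.

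The Zp3 promoter is shown because FIGLA acts on the zona genes through E-boxes, and its sequence was taken from RefSeq. It covers the 244 bases that end just before the first base of the gene, on the plus strand of GRCm38.p6 at chr5:135979855-135980098, with the E-boxes in capitals.
Zp3 promoter: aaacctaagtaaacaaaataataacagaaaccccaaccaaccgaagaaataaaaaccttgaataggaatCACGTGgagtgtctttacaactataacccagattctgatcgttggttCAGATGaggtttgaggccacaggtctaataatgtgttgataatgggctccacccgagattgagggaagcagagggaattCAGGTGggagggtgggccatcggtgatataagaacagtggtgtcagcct
The search for CANNTG reads both strands at once, because the motif is its own reverse complement. It found 3 E-boxes that do not overlap: CACGTG at -175 to -170, CAGATG at -128 to -123 and CAGGTG at -49 to -44, where -1 is the base just before the gene. Among 32851 RefSeq promoter windows of 250 bases before a start, 66.2 % held at least 1 E-box and 12.2 % held at least 3. By letters, 6.02 % of the windows held CACGTG, 14.4 % CAGATG and 17.2 % CAGGTG on either strand. A match of letters is a description of the sequence and not a measured site.

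Before the zona values were compared, the label of the libraries was checked against markers. All 8 oocyte markers (among them Ddx4, Dazl and Gdf9) were at 1 RPKM or more in every library, with summed levels of 1534 to 1709 RPKM. The summed level of 11 granulosa cell markers was 6.53 RPKM in NGOs, 12.1 at GO1, 16.6 at GO2 and 19.6 in FGOs. It came mainly from Nr5a2 and Cyp19a1. Among the others, Amh, Fshr and Foxl2 did not exceed 0.412, 0.302 and 0.0753 RPKM, while Inha and Kitl reached 1.54 and 1.63 RPKM in FGOs. Of these 11, between 1 (NGOs) and 4 (FGOs) reached 1 RPKM. The 4 with at least 1 RPKM in NGOs or FGOs were all 2-fold higher in FGOs, beside 13.0 % of all such genes. Only 1 of the 4 reached 1 RPKM in NGOs. The 9 markers of theca and stroma summed to 5.62 RPKM in NGOs, where Col1a1 (2.24 RPKM) and Col3a1 (1.73 RPKM) passed 1 RPKM, and to 0.312 to 0.676 RPKM elsewhere, with 0 of 9 at 1 RPKM, and the 4 listed blood and immune markers to 0.921 RPKM in NGOs and at most 0.0188 RPKM elsewhere. The blood and immune sum in NGOs came mainly from Hba-a1 (0.902 RPKM). Cyp11a1, of the theca and stroma list, went the other way, at 0.00509 RPKM in NGOs and 0.311 in FGOs. NGOs were thus the library with the largest sums of stromal and blood markers. FGOs had the largest sum of granulosa markers. Foxl2, Inhba, Amhr2 (0.397 RPKM in NGOs and 0.225 in FGOs) and Wt1 (0.161 and 0.0202) were instead highest in NGOs, each below 1 RPKM. All these sums were far below the level of any zona gene. The part of such other cells in the changes below was not tested.

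All zona genes were among the most abundant transcripts of every library. Zp2 was at 2261 RPKM in NGOs (95 % exact Poisson interval 2255 to 2267), 1643 RPKM at GO1 (1639 to 1648), 1403 RPKM at GO2 (1400 to 1406) and 1052 RPKM in FGOs (1048 to 1055). It was thus highest in the NGO pool and lower in each later stage. Among all listed genes its level ranked 4 in NGOs, GO1 and GO2 and 6 in FGOs.

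Zp3 was at 1772 RPKM in NGOs (1765 to 1779), 616 RPKM at GO1 (612 to 620), 723 RPKM at GO2 (720 to 726) and 820 RPKM in FGOs (815 to 824). Its level in NGOs stood far above the other stages, and the order of the later libraries was the opposite of that of Zp2, with GO1 lowest and FGOs highest. The level of Zp3 ranked 6 in NGOs, 21 at GO1, 14 at GO2 and 11 in FGOs.

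Zp1 was the least abundant zona transcript throughout, with 633 RPKM in NGOs (630 to 636), 254 RPKM at GO1 (252 to 256), 237 RPKM at GO2 (236 to 238) and 363 RPKM in FGOs (361 to 366). Both libraries made with the dUTP protocol were above both ScriptSeq libraries. The level of Zp1 ranked 20 in NGOs, 66 at GO1, 67 at GO2 and 45 in FGOs. The intervals of any 2 stages did not overlap for any zona gene, but they cover counting error only and rest on 63883 to 745092 counted units per value. These units are the smallest steps of the deposited values. They add up to more than the reads that the study lists as mapped, so a sequenced fragment can give several of them, they are not independent and the intervals given are too narrow. With 4 units per fragment the intervals were wider (626 to 640 RPKM for Zp1 in NGOs), and those of any 2 stages still did not overlap for any zona gene. The variation between pools of oocytes can be larger.

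**Figure D1:**
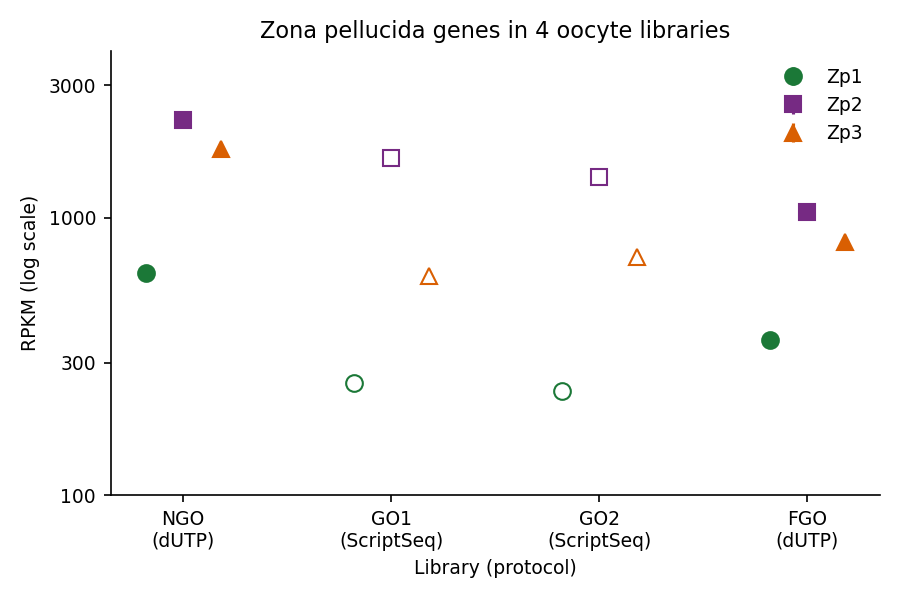
RPKM (log axis) of Zp1, Zp2 and Zp3 in each library, with filled symbols for the dUTP protocol and open symbols for ScriptSeq. Bars are 95 % exact Poisson intervals and are smaller than the symbols. Zp2 was above Zp3 and Zp3 above Zp1 in each of the 4 libraries, and all 3 genes were highest in NGOs.

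Added together, the 3 genes made up 4666 RPKM in NGOs, 2514 at GO1, 2363 at GO2 and 2235 in FGOs. This was 2.48 % of the RPKM of all listed genes in NGOs, 1.44 % at GO1, 1.40 % at GO2 and 1.19 % in FGOs. The share of zona transcripts was therefore largest in the youngest pool, which was labelled as non-growing. The oocyte sizes that the study lists overlap between this pool and GO1, so non-growing and growing oocytes may not be fully separated. The sizes listed for GO2 lie within the range of GO1, so both growing pools can hold oocytes of like size. RPKM is a share of each library, so less zona RNA per oocyte and more of other RNA in a growing oocyte cannot be told apart. Likewise, fewer cells of a type and less RNA per cell cannot be told apart in pooled material.

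Between the libraries made with the dUTP protocol, Zp2 and Zp3 were at less than 0.5 of their NGO level in FGOs. Changes are given as log2 differences of RPKM + 0.1 after the libraries had been scaled to each other by a trimmed mean of log ratios, which moved the values by less than 0.1 in each pair. Zp2 was 2.06-fold lower in FGOs (log2 change -1.04, interval -1.05 to -1.04), Zp3 was 2.07-fold lower (-1.05, interval -1.06 to -1.04), and Zp1 was 1.67-fold lower (-0.74, interval -0.75 to -0.73). The transcripts of the filament units were thus lower by the same factor within counting error, and that of the cross-linking ZP1 by a smaller one. Relative to genes of like GC content, described below, the changes of Zp2 (-1.12) and Zp3 (-0.90) were unequal and Zp3 did not pass 2-fold. With a threshold of 2-fold, 2 of the 3 genes were lower in FGOs and 0 were higher, where 11.3 % of the 10568 genes with at least 1 RPKM in either library were 2-fold lower and 13.0 % were 2-fold higher. Zp2 and Zp3 lay just past that threshold. More negative changes than those of Zp1, Zp2 and Zp3 were found for 17.6 %, 10.4 % and 10.2 % of these genes, respectively.

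Between the libraries made with the ScriptSeq kit the zona genes differed little. From GO1 to GO2, Zp2 had a log2 change of -0.24 (interval -0.24 to -0.23), Zp1 of -0.11 (-0.12 to -0.10) and Zp3 of 0.22 (0.21 to 0.23). Zp3 was thus higher in the later stage and both other genes were lower. The size of these changes depended on the reference, with 0.060 for Zp3 and -0.26 for Zp1 relative to genes of like GC content and -0.057 for Zp1 with libraries scaled to the same sum. None of the 3 passed 2-fold, where 1.86 % of 9793 genes were 2-fold higher and 0.807 % were 2-fold lower. For all genes tested in this pair the quartiles of the changes were -0.22 and 0.24, which enclose Zp1 and Zp3.

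**Figure D2:**
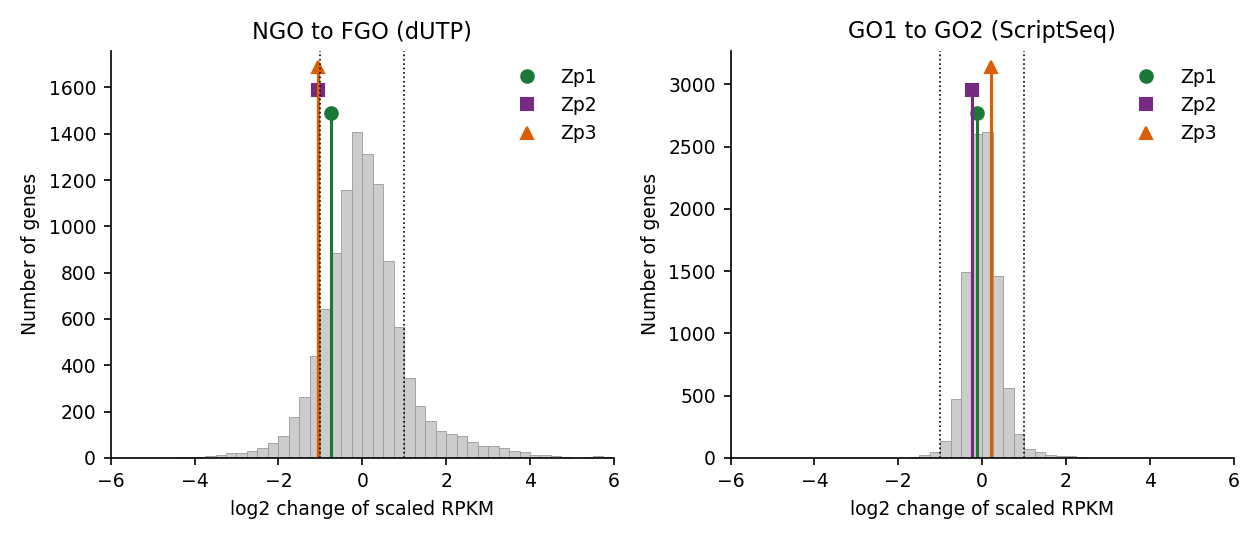
Histograms of the log2 change of scaled RPKM for all genes with at least 1 RPKM in either library, from NGOs to FGOs (left) and from GO1 to GO2 (right), with the zona genes as coloured lines and 2-fold changes as dotted lines. Changes beyond 6 in either direction are counted in the outermost bars. From NGOs to FGOs all 3 genes lie to the left of the centre, with Zp2 and Zp3 just past 2-fold lower, and from GO1 to GO2 they lie near the centre.

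The remaining steps compare libraries made with different protocols and are given side by side with the above, because stage and protocol cannot be told apart in them. From NGOs to GO1, Zp3 was 2.72-fold lower (log2 change -1.44) and Zp1 was 2.35-fold lower (-1.23), whereas Zp2 was 1.30-fold lower (-0.38). In this step 2 of 3 zona genes were past 2-fold lower, where 19.2 % of 10313 genes were 2-fold lower and 12.1 % were 2-fold higher. From GO2 to FGOs, Zp1 was 1.44-fold higher (0.53), Zp3 was 1.07-fold higher (0.09) and Zp2 was 1.42-fold lower (-0.51). No zona gene passed 2-fold in this step, where 8.54 % of 10198 genes were 2-fold higher and 4.40 % were 2-fold lower.

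The balance between the zona transcripts also differed between libraries, and it does not depend on how libraries are scaled to each other. The ratio of Zp2 to Zp3 in RPKM was 1.28 in NGOs (95 % exact binomial interval 1.27 to 1.28) and 1.28 in FGOs (1.27 to 1.29), but 2.67 at GO1 (2.65 to 2.69) and 1.94 at GO2 (1.93 to 1.95). Hence the Zp2 and Zp3 transcripts were in the same proportion in both dUTP libraries within counting error. Zp2 was in greater excess in both ScriptSeq libraries. The ratio of Zp2 to Zp1 was 3.57 in NGOs, 6.46 at GO1, 5.92 at GO2 and 2.89 in FGOs. This ratio too was higher in both ScriptSeq libraries. The ratio of Zp1 to Zp3 was 0.357 in NGOs (0.355 to 0.359), 0.413 at GO1 (0.409 to 0.417), 0.328 at GO2 (0.325 to 0.330) and 0.443 in FGOs (0.439 to 0.447), and its order did not follow the protocol. Within each protocol the ratio of Zp1 to Zp3 differed by more than counting error. As shares of the summed zona RPKM, Zp2 contributed 48.5 % in NGOs, 65.4 % at GO1, 59.4 % at GO2 and 47.1 % in FGOs. The share of Zp1 was 13.6 % in NGOs and 16.3 % in FGOs, and it was lower in both ScriptSeq libraries (10.1 % at GO1).

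**Figure D3:**
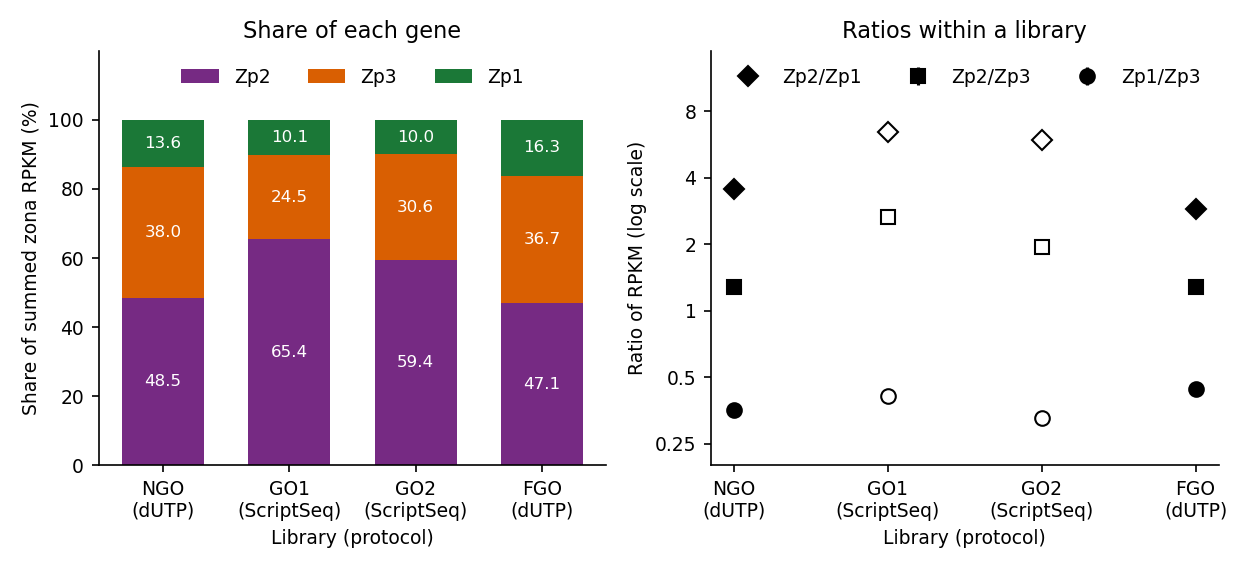
Left, share of each gene in the summed RPKM of Zp1, Zp2 and Zp3 (%) for each library. Right, ratios of RPKM between pairs of zona genes (log axis), with filled symbols for dUTP, open symbols for ScriptSeq, and bars for 95 % exact binomial intervals, which are smaller than the symbols. The ratio of Zp2 to Zp3 was 1.28 in both dUTP libraries and 2.67 and 1.94 in the ScriptSeq libraries.

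The difference between the dUTP and the ScriptSeq libraries, in which stage and protocol cannot be told apart, went with the base composition of transcripts. For each gene, the mean log2 RPKM of the dUTP libraries minus that of the ScriptSeq libraries was 0.97 for Zp1, 0.02 for Zp2 and 0.85 for Zp3, with a median of 0.05 over the 8592 genes at 1 RPKM or more in every library. The GC content of the transcript was 55.1 % for Zp1, 46.6 % for Zp2 and 56.1 % for Zp3. Zp1 and Zp3 were thus richer in GC than Zp2, and their levels in the dUTP libraries exceeded those in the ScriptSeq libraries by more. Genes within 1 percentage point of GC of each zona gene had medians of 0.52 for Zp1 (656 genes, quartiles 0.09 to 0.97), -0.11 for Zp2 (860 genes, -0.41 to 0.22) and 0.60 for Zp3 (606 genes, 0.21 to 1.02). Zp2 and Zp3 lay between the quartiles of genes of like GC content, and Zp1 lay at the upper quartile, above 75.2 % of them. The part of GC content in the zona ratios was not tested.

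**Figure D4:**
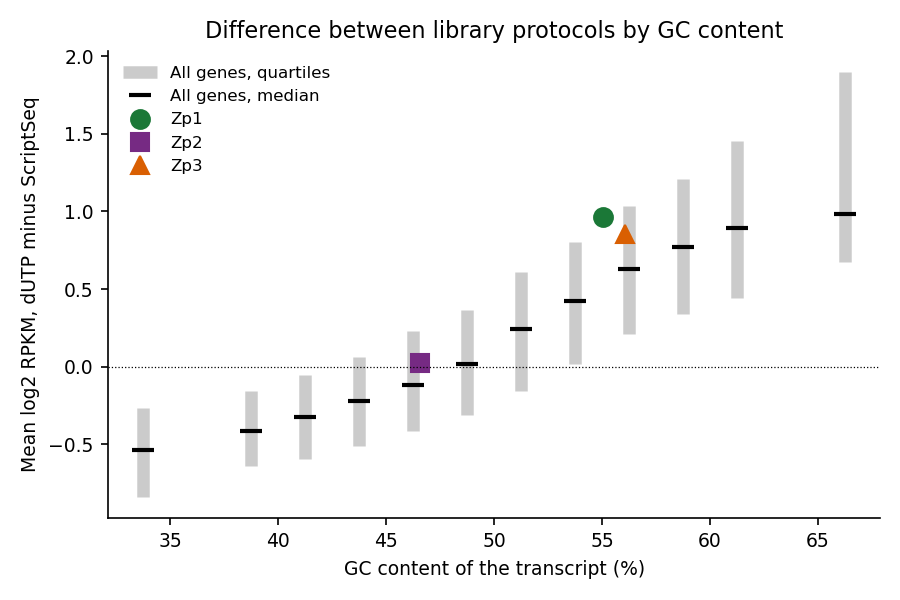
Mean log2 RPKM of NGOs and FGOs (dUTP) minus that of GO1 and GO2 (ScriptSeq) against the GC content of the transcript (%). Stage and protocol cannot be told apart in this difference. Black marks are medians and grey bars the quartiles of genes in bins of GC content, and symbols are the zona genes. The medians go up from -0.54 in the bin of lowest GC to 0.99 in the bin of highest GC, with Zp1 (0.97) and Zp3 (0.85) among the genes of higher GC.

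Changes between stages also varied with GC content, and the zona genes were therefore set beside genes within 1 percentage point of their GC for the changes as well, a comparison chosen after the data had been seen. From NGOs to FGOs, the median log2 change of such genes was -0.14 for Zp1, 0.08 for Zp2 and -0.15 for Zp3. Relative to these medians, the log2 change was -1.12 for Zp2, -0.90 for Zp3 and -0.60 for Zp1. With this reference Zp3 no longer passed 2-fold and Zp2 still did. From NGOs to GO1 the changes relative to genes of like GC content were -0.53 for Zp1, -0.55 for Zp2 and -0.65 for Zp3, and thus nearly equal. From GO2 to FGOs they were 0.17 for Zp1, -0.35 for Zp2 and -0.34 for Zp3, and from GO1 to GO2 they were -0.26, -0.21 and 0.060.

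The list of regulators held early oocyte transcription factors, E proteins and the Id genes, whose products inhibit E proteins without binding DNA. Of its 14 genes 13 reached 1 RPKM in NGOs or FGOs, and 7 of these were 2-fold lower in FGOs and 0 were 2-fold higher, where 11.3 % of all genes tested were lower and 13.0 % were higher. The median log2 change was -1.18 beside a median of 0.00 over all genes tested. The 7 genes were Figla, Sohlh1, Sohlh2, Tcf12, Tbpl2, Id1 and Id2. Gtf2a1l (log2 change 0.61) and Taf4b (0.17) went the other way without passing 2-fold. Of this pair of libraries, Sohlh1 and Id1 (1.30 RPKM in NGOs and 0.396 in FGOs) reached 1 RPKM in NGOs alone. They were thus tested only through the library where they were higher. Figla itself was at 102 RPKM in NGOs, 38.9 at GO1, 23.6 at GO2 and 20.6 in FGOs, and thus lower in each later stage, as for Zp2. Its log2 change from NGOs to FGOs was -2.24, more negative than that of any zona gene. Tcf3, the gene of the E-protein partner E12, was at 16.6 RPKM in NGOs, 7.66 at GO1, 7.41 at GO2 and 9.14 in FGOs, an order of libraries that was also that of Zp1. Tcf12, the gene of another E protein, had a log2 change of -1.44.

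Other germ line factors differed widely in size. Sohlh1, a helix-loop-helix factor of early follicles, was at 78.0 RPKM in NGOs, 2.35 at GO1, 1.09 at GO2 and 0.577 in FGOs. It had a log2 change of -6.80 from NGOs to FGOs, and its partner Sohlh2 had one of -2.48. Nobox, a homeobox factor, was at 125, 101, 114 and 104 RPKM in the order of stages, and Lhx8, a LIM homeobox factor, at 40.9, 31.9, 32.1 and 27.6 RPKM. Neither passed 2-fold, and the changes of the zona genes lay between those of Nobox (-0.20) and Sohlh1. From GO1 to GO2, 1 of the 13 factors tested was 2-fold lower (Sohlh1, -1.05) and 0 were higher, where 0.807 % of all genes tested were lower and 1.86 % were higher. The median was -0.41 beside 0.01 over all genes tested.

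Most other genes that encode a ZP domain were scarce. The list held 12 genes, of which Zp4-ps, a pseudogene in the mouse, was not analysed here, and 3 of the other 11 reached 1 RPKM in any library. Umodl1, which encodes a membrane protein with a ZP domain, was at 13.2 RPKM in NGOs, 31.4 at GO1, 39.3 at GO2 and 58.9 in FGOs. Its level was higher in each later stage (log2 change 2.21 from NGOs to FGOs), in contrast to Zp2. Tgfbr3, the gene of a TGF-beta co-receptor, had a log2 change of 1.56 and Zpld1 one of -0.19 over the same pair, so 2 of 3 were 2-fold higher and 0 were lower, where 13.0 % of all genes tested were higher and 11.3 % were lower. Tecta, which encodes a protein of the inner ear, was listed at 0 in all libraries.

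Genes for the cleavage and maturation of zona proteins did not pass 2-fold between NGOs and FGOs. Of 7 such genes 4 were tested, with 0 higher and 0 lower, where 13.0 % and 11.3 % of all genes tested were, and a median log2 change of 0.09. Astl, the gene of ovastacin, was at 343 RPKM in NGOs, 130 at GO1, 165 at GO2 and 286 in FGOs. It was higher in both dUTP libraries than in both ScriptSeq libraries, as were Zp1 and Zp3, and its log2 change from NGOs to FGOs was -0.20. Furin, a proprotein convertase of the secretory route, had a log2 change of 0.65, and Fetub, the gene of an inhibitor of ovastacin, one of 0.35. From GO1 to GO2 none of the 4 passed 2-fold.

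Of 12 genes for N- and O-linked glycosylation, 9 were tested between NGOs and FGOs, of which 1 was 2-fold lower and 0 were higher, with a median log2 change of 0.17. The share of lower genes was thus near the 11.3 % of all genes tested, beside 13.0 % that were higher. The lower gene was Mgat2 (-1.15), which encodes an enzyme that builds complex N-glycans. Mgat1, which acts before it, was at 4.72 RPKM in NGOs, 1.77 at GO1, 3.37 at GO2 and 8.43 in FGOs (0.88). Galnt3, which encodes an enzyme that starts O-glycans, was at 2.83 RPKM in NGOs, 7.68 at GO1, 7.41 at GO2 and 5.11 in FGOs (0.89), with both ScriptSeq libraries above both dUTP libraries. From GO1 to GO2, 0 of 9 passed 2-fold.

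Of 5 genes for other secreted proteins of the oocyte, 4 were 2-fold higher in FGOs than in NGOs and 0 were lower, where 13.0 % of all genes tested were higher and 11.3 % were lower. Their median log2 change was 1.52. Oosp1 was at 254 RPKM in NGOs, 410 at GO1, 416 at GO2 and 700 in FGOs (1.52), and Oosp3, listed as Gm97, had a log2 change of 2.89. Oosp2, listed as Plac1l, had a log2 change of 1.24. Among the growth factors of the oocyte that act on granulosa cells, Bmp15 was at 131 RPKM in NGOs, 329 at GO1, 416 at GO2 and 414 in FGOs (1.72), and Gdf9 at 1009, 765, 798 and 974 RPKM (0.01). Zp2 was above Gdf9 in every library, and Zp3 was above it in NGOs and below it in the 3 later stages. From GO1 to GO2, 0 of the 5 genes passed 2-fold. The difference between the zona genes and these lists was not tested.

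**Figure D5:**
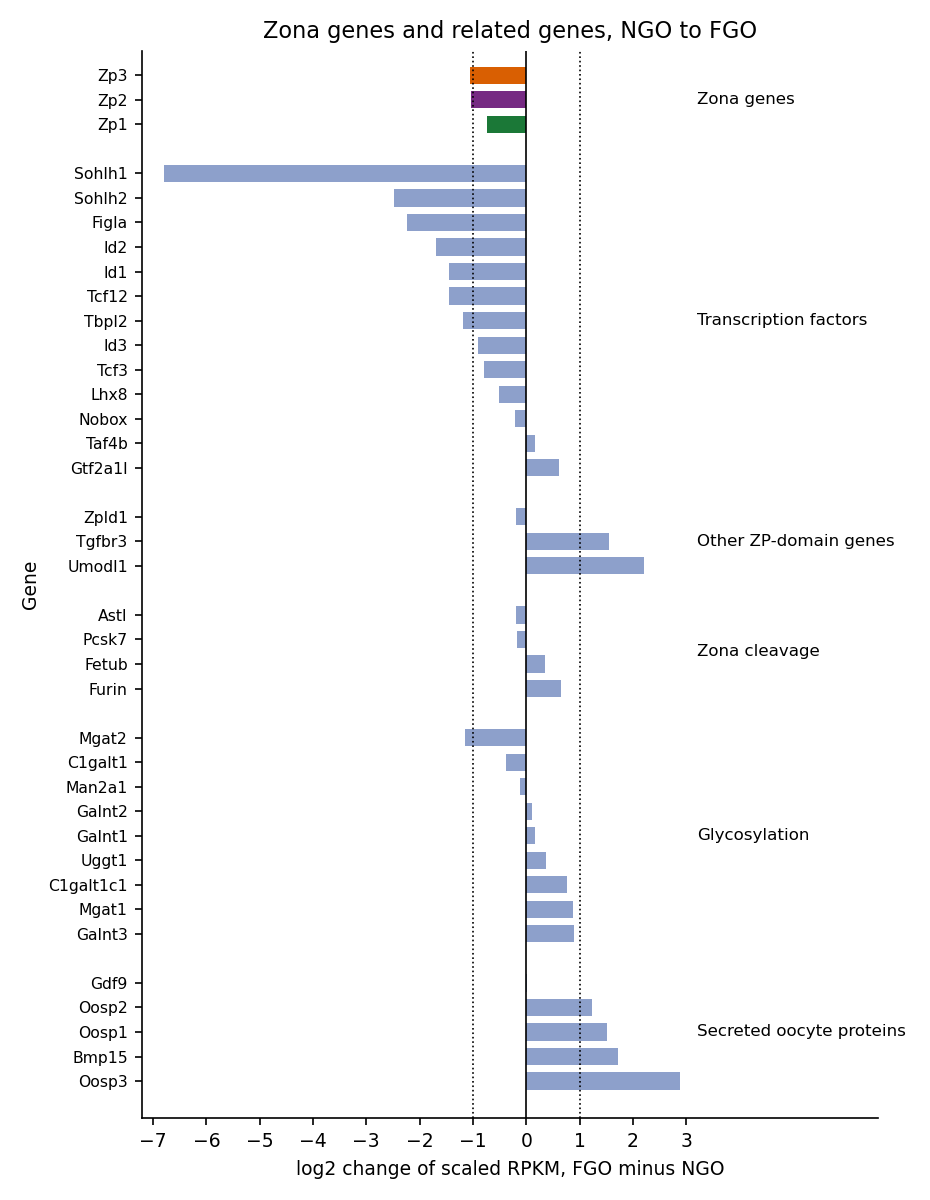
Log2 change of scaled RPKM from NGOs to FGOs for the zona genes and for listed genes with at least 1 RPKM in either library, grouped by role, with 2-fold changes as dotted lines. Zp2 (-1.04) and Zp3 (-1.05) lie on the same side as Figla (-2.24) and Sohlh1 (-6.80), and Oosp3 (2.89) and Umodl1 (2.21) lie on the other.

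The order of the stages by level was NGOs, FGOs, GO1, GO2 for Zp1, NGOs, GO1, GO2, FGOs for Zp2 and NGOs, FGOs, GO2, GO1 for Zp3. Among the 8592 genes at 1 RPKM or more in every library, these orders were shared by 7.15 %, 8.66 % and 14.4 %, respectively, and 36.7 % were highest in NGOs. In 33.0 % of these genes both dUTP libraries were above both ScriptSeq libraries, as for Zp1 and Zp3. The profiles of Zp1 and Zp3 were closer to each other than either was to that of Zp2. Profiles were of log2 RPKM, each centred on its own mean over the 4 libraries. The distance was 0.34 between Zp1 and Zp3, 0.97 between Zp1 and Zp2 and 0.89 between Zp3 and Zp2. These distances include the difference between the dUTP and ScriptSeq libraries, a mean log2 of 0.97 for Zp1, 0.85 for Zp3 and 0.02 for Zp2. That difference holds stage as well as protocol. Distances relative to genes of like GC content were not computed.

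The genes whose profile was most like that of each zona gene were sought among 4543 genes with at least 10 RPKM in any library. For Zp1 they were Atp5a1 (distance 0.069), Gm17511, Rpl38, Rps27a and Cdc34, and Zp3 came at place 150. For Zp2 they were Rrp36 (0.050), Coro1c, Ddhd2, Rexo2 and Ptprj. For Zp3 they were Rps15 (0.068), Gm16409, Stk25, Efcab6 and Ppp2r1a, and Zp1 came at place 91. Rps15, which encodes a ribosomal protein, was at 109 RPKM in NGOs, 40.4 at GO1, 46.2 at GO2 and 52.9 in FGOs, a profile with the same order of libraries as Zp3 at a much lower level. With 4 libraries and 2 protocols many genes have similar profiles, and the likeness is a description.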

How the data were processed

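The 4 RNA-Seq libraries, 1 per oocyte stage, were of 100-bp paired-end reads. The authors trimmed the reads with Trim Galore 0.2.8, mapped them to GRCm38 with TopHat2 2.0.9 and deposited RPKM on a linear scale for 25587 genes. The program, annotation and strand setting behind the RPKM are not given in the sources used here. The deposited table is titled as read counts, but its values are not whole numbers.

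Library totals were fitted so that RPKM times length was a whole number of counted units for genes with 1 exon in GENCODE M21. Within 0.1 units, at least 99.4 % of values above 0 came out whole, and the totals were 110595207 (NGOs), 126796745 (GO1), 241385710 (GO2) and 119629249 (FGOs). These totals exceed the mapped reads that the study lists, so the units are not independent reads. What was counted (mates, or segments of spliced reads) is not given in the sources used here. Between 55.9 % and 63.7 % of the whole values were odd, so the fitted step is not 0.5 of the true one. Units of the zona genes were recovered with exon lengths of 1981 (Zp1), 2200 (Zp2) and 1323 bases (Zp3). At 3 units, a gene with 1 kb of exons has 0.0271, 0.0237, 0.0124 and 0.0251 RPKM in these libraries. Intervals are 95 % exact Poisson or binomial intervals and cover counting error only. They are too narrow, since units of 1 fragment and PCR copies are not independent, and were also computed with 4 units per fragment, a number chosen after seeing the data.

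For changes, a trimmed mean of log ratios set the scale of each library against the other (30 % of ratios and 5 % of levels trimmed from each end, genes of at least 1 RPKM in both), with a pseudocount of 0.1 RPKM and a threshold of 2-fold, and the code was tested on simulated data. Fold changes on this scale understate those of genes with low levels. GC content was taken from the coding transcript described for each zona gene and from the longest GENCODE transcript of other genes, and was known for 90.3 % of the genes compared. Promoters were taken from RefSeq (GRCm38.p6), where 1 of 3 zona genes matched. Python 3.11.15, numpy 2.4.6, pandas 2.3.3, scipy 1.17.1 and matplotlib 3.10.9 were used.

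The text names the zona genes, genes of the lists given, the 5 genes with the most similar profile to each zona gene and their nearest listed neighbours. The zona genes and the lists were chosen with earlier results of these data known. Alternatives were other scalings, pseudocounts, filters and thresholds, counted units without length correction, and genes of like GC content as reference. Genes found only by the oocyte assembly were not analysed here.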

Additional observations from a re-analysis of the deposited data

How the results depend on the processing

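With 1 library per stage no replicate could be left out. No paired analysis was possible because each stage has 1 library and the numbers in GO1 and GO2 name stages. Within the pairs made with the same protocol, pseudocounts of 1 and 0.01 moved no zona change beyond its counting interval, and no alternative turned a direction. Ranking only genes above 0 moved no rank. Across protocols, from GO2 to FGOs, the direction of Zp3 did depend on the reference. Its log2 change was 0.09, and -0.34 relative to genes of like GC content. From NGOs to FGOs, without scaling the log2 changes were -0.80 (Zp1), -1.10 (Zp2) and -1.11 (Zp3). With libraries scaled to the same sum they were -0.80, -1.10 and -1.11, and relative to genes of like GC content, added after seeing the data, -0.60, -1.12 and -0.90. At 4-fold, 0 zona genes were lower in FGOs. From GO1 to GO2, the same sum gave -0.057 (Zp1), -0.18 (Zp2) and 0.28 (Zp3), scaling over all genes above 0 gave -0.14, -0.27 and 0.19, like GC content gave -0.26, -0.21 and 0.060, and no scaling gave -0.23 for Zp2. Counted units not divided by exon length gave ratios in NGOs, GO1, GO2 and FGOs of 2.12, 4.44, 3.23 and 2.13 (Zp2 to Zp3), 0.535, 0.618, 0.491 and 0.664 (Zp1 to Zp3) and 3.97, 7.18, 6.57 and 3.21 (Zp2 to Zp1), because the genes differ in length. With 4 counted units per fragment, the intervals of the ratio of Zp2 to Zp3 overlapped in 1 of 6 pairs of libraries (NGOs and FGOs) and those of the other ratios in 0. The main limit is the missing second library of each stage.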

Other observations

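The nearest listed genes on either side of each zona gene were expressed far below it. Beside Zp3, Srcrb4d (5567 bp away) was at 4.30 RPKM at GO1, 5.69 at GO2 and 12.7 in FGOs, with NGOs between GO2 and FGOs, and Dtx2 (6175 bp away), which encodes a ubiquitin ligase, was at 33.5, 16.8, 19.3 and 38.4 RPKM in the order of stages. Both were lowest in GO1, as was Zp3, but highest in FGOs, where Zp3 was highest in NGOs. Beside Zp2, Tmem159 (11368 bp away) was at 0.582 RPKM in NGOs, 0.377 at GO1, 1.14 at GO2 and 2.30 in FGOs, and Anks4b (28567 bp away) at 27.4, 42.0, 31.1 and 19.0 RPKM. Anks4b was, like Zp2, lowest in FGOs. Beside Zp1, Prpf19 (4727 bp away), which encodes a splicing factor, was at 7.98 RPKM in NGOs, 1.58 at GO1, 2.47 at GO2 and 4.57 in FGOs, and Gpr44 (16527 bp away) did not exceed 0.0376 RPKM. These are values of 1 library per stage, and their relation to the zona genes was not tested.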
